A study of Saccharomyces cerevisiae with 4 samples.

Results

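The genes described here encode the Ras proteins and the protein kinase A (PKA) pathway of the budding yeast Saccharomyces cerevisiae. They are RAS1, RAS2, GPA2, CYR1, PDE1, PDE2, BCY1, TPK2 and TPK3, chosen by gene symbol, 9 of the 6212 rows of the value table. Each array compared RNA of 2 cell populations of the strain labelled DBY4741, grown at 28 °C in the rich glucose medium YPD. On 2 arrays reg1 cells treated with 16 mM KOH for 10 min, which brought the medium to about pH 8.0, were set against reg1 cells given 16 mM KCl for the same time in medium of about pH 5.5. On the other 2 arrays untreated reg1 cells were set against untreated wild-type cells. In reg1 cells the REG1 gene is disrupted with a KanMX cassette (reg1::KanMX), and both sides of the alkali comparison carry that disruption, and the wild-type response to alkali was not analysed here. The labels do not say whether the cells of experiments 1 and 2 were separate cultures, so the p-values cover the spread among these samples alone, and that spread may be technical.

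In yeast, glucose activates adenylate cyclase, the product of CYR1, through Ras proteins and through the receptor Gpr1 with its G protein alpha subunit Gpa2. The cyclic AMP so made binds Bcy1, the regulatory subunit of PKA, which then releases the catalytic subunits, Tpk2 and Tpk3 among them. Active PKA promotes growth and fermentation and holds back stress responses, and the phosphodiesterases Pde1 and Pde2 end the signal by breaking down cyclic AMP. Reg1 belongs to another branch of glucose signalling, in which it directs the protein phosphatase Glc7 against the kinase Snf1.

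Every value below is a log ratio of 2 RNA samples on 1 array, taken as log2 from the range of the values because the base is not stated. A value of 1 is then a 2-fold difference, every fold printed rests on that base, and the data give no absolute level of any gene. Between 4746 and 5190 rows had a value on each array. All 9 genes had a value on all 4 arrays in the reading used. REG1 was at -1.10 and -0.96 on the mutant arrays, 2.04-fold lower in reg1 than in wild type (adjusted p = 0.0313, limma), so positive values are higher in reg1. REG1 had no value on the alkali arrays. The labels do not state the direction of the alkali ratios outright. Titles and channel order make KOH over KCl likely, and in that direction the sodium pump gene ENA1 was at 7.40 on both arrays.

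The mutant values of 5 of the 9 genes (RAS1, RAS2, TPK2, TPK3 and PDE2) stand in the table beside other genes' names. In the 2794 rows from YKL011C to YPR204W, the number of mutant arrays with a value correlated with the number of alkali arrays with a value at r = 0.04 at the row itself and at r = 0.75 with a displacement of the mutant columns by 2 rows. In windows of up to 201 rows centred on each gene, the best of 9 displacements was 2 rows for these 5 genes, with r between 0.72 and 0.80. It was 0 rows for the other 4, with r between 0.65 and 0.70. The mutant values of the 5 genes were therefore read 2 rows further down. No gene of the 9 lies among the 199 rows from YAL067C to YBR047W, which were left out.

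**Figure D1:**
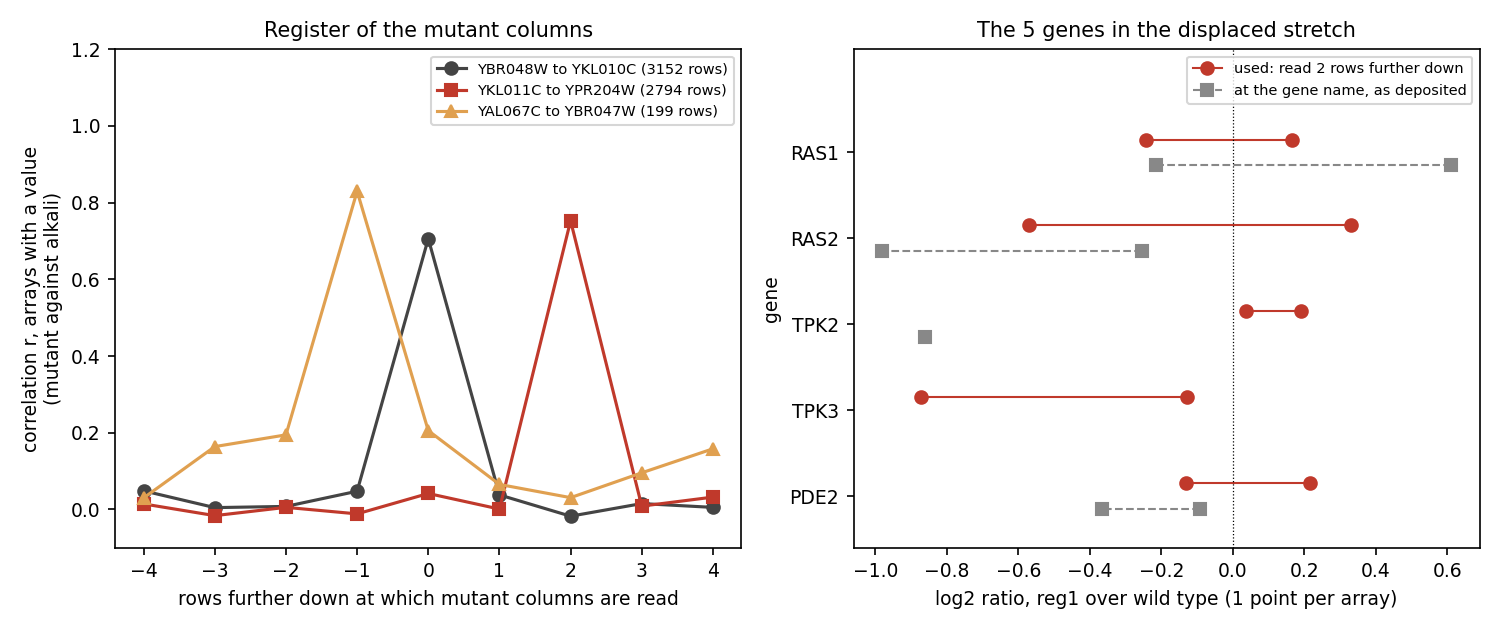
Left, the correlation across rows between the numbers of mutant and alkali arrays with a value, at each displacement of the mutant columns, for 3 stretches of the table. The curve for YKL011C to YPR204W peaks at 2 rows and that for YBR048W to YKL010C at 0. Right, the reg1 over wild type log2 ratios of the 5 genes in the displaced stretch, 1 point per array, as used (red) and at the gene's name as deposited (grey). TPK3 has no deposited value at its name and TPK2 has 1.

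After 10 min of alkali the 9 genes did not move in 1 direction in reg1 cells. GPA2 and CYR1 were about 8-fold and 7-fold higher after KOH. TPK2, PDE1 and BCY1 were higher by smaller amounts, RAS1 and TPK3 were about 2-fold lower, and RAS2 and PDE2 did not pass the test. In all, 7 of the 9 genes were called by limma (adjusted p below 0.05), 5 as higher and 2 as lower after KOH. Of the 4584 rows tested, 61.8% passed, 29.1% higher and 32.7% lower, so a share of 7 in 9 is near that of the whole table. After scaling that gave each array an equal spread, 4 of the 9 genes passed as higher and 0 as lower, and 734 of all rows passed as higher and 490 as lower, against 1334 and 1498 without scaling. The median log2 ratio of the 9 genes was 0.45, against -0.09 over all rows tested. It was 0.47 without alkali experiment 1 and 0.46 without experiment 2. Those fits leave 1 alkali array and take the spread from the mutant arrays, so calls are lost in them over the whole table as well. At 2-fold or more on both arrays in 1 direction there were 5 of the 9 genes and 28.3% of all rows.

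**Figure D2:**
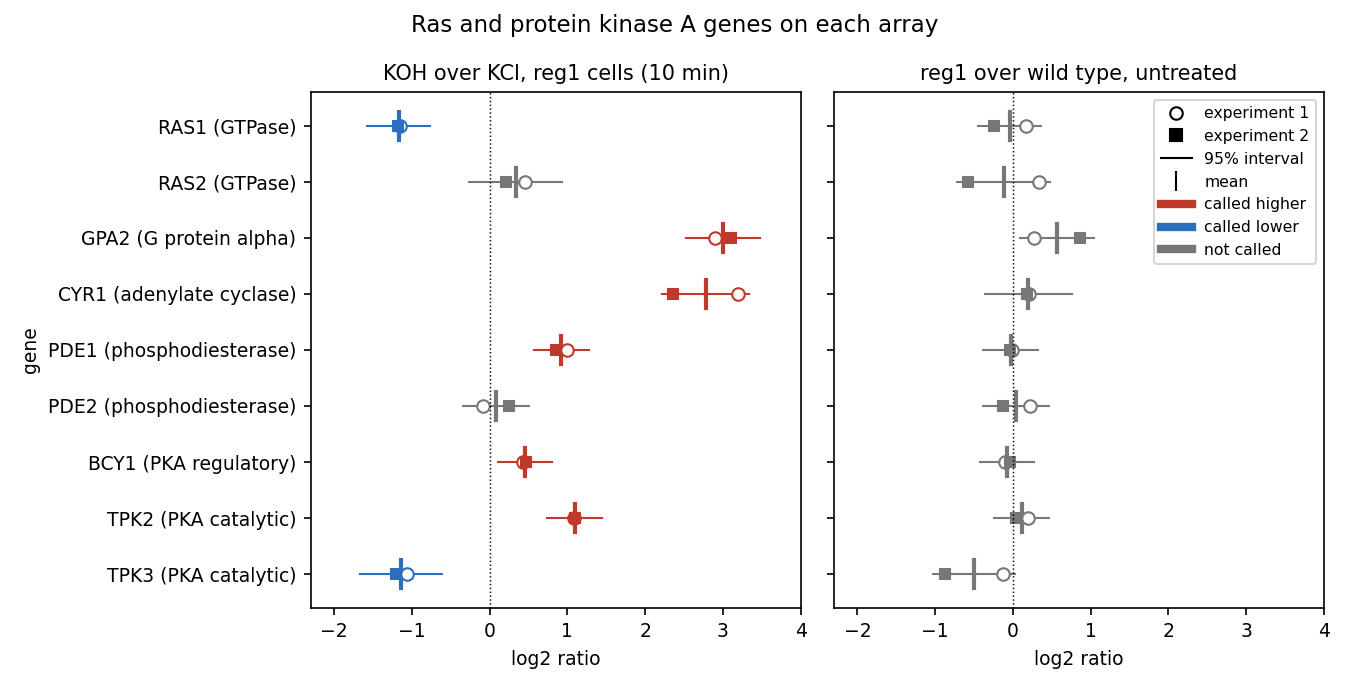
Log2 ratios of the 9 genes on each array (circle, experiment 1; square, experiment 2), with the mean as a vertical tick and limma's 95% interval as a line. Left, KOH over KCl in reg1 cells, where GPA2 and CYR1 lie above 2 on both arrays and RAS1 and TPK3 below -1. Right, reg1 over wild type, where all 9 means lie between -0.50 and 0.57 and none passed the test.

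RAS1 and RAS2 encode paralogous GTPases that activate adenylate cyclase. RAS1 had log2 ratios of -1.16 and -1.18 on the 2 alkali arrays, so both arrays put it more than 2-fold lower after KOH. Its mean of -1.17 ± 0.01 (SD, n = 2) is a 2.25-fold decrease, with a 95% interval of -1.58 to -0.76 (adjusted p = 0.00214). RAS2 had 0.46 and 0.21, slightly above 0 on both arrays. Its mean of 0.34 ± 0.18 did not pass (adjusted p = 0.271), and the interval of -0.26 to 0.93 leaves room for a change of up to 1.91-fold upwards. Within each array the RAS2 ratio lay above that of RAS1, by 1.62 and 1.39 on the log2 scale. This is a 2.84-fold gap between the ratios of the paralogues, described here without a test.

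GPA2 encodes the alpha subunit of the G protein that the receptor Gpr1 activates. It had 2.90 and 3.11 after KOH, the highest mean of the 9 genes. The mean of 3.01 ± 0.15 (SD, n = 2) is an 8.03-fold increase with an interval of 5.76-fold to 11.2-fold (adjusted p = 2.5e-04). A mean above that of 98.2% of all rows tested put GPA2 in the upper tail of the alkali response. CYR1, the adenylate cyclase gene, had 3.20 and 2.36, the widest gap between arrays among the 9 genes. Its mean was 2.78 ± 0.59, a 6.87-fold increase with an interval of 4.67-fold to 10.1-fold (adjusted p = 4.3e-04). The arrays of GPA2 and CYR1 overlap, and the means differ by 0.23, less than the SD of CYR1.

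Gene length moved with the alkali ratio, and CYR1 is a long gene. Across 4342 rows with a length in RefSeq's table of assembly R64, length and the KOH over KCl log2 ratio had a Spearman correlation of 0.50, and 0.49 without the ribosomal protein genes. This is a description across genes, which share the arrays and are not replicates. Of 111 measured genes of 4000 base pairs or more, 105 passed as higher and 2 as lower, and their median log2 ratio was 1.91, against -0.11 for the shorter genes. CYR1 spans 6081 base pairs, and the 41 other measured genes of 0.8 to 1.25 times that length had a median of 1.85, with 97.6% of them below CYR1. GPA2 spans 1350 base pairs, where 1258 genes of like length had a median of -0.14 and 98.8% lay below GPA2. With a smooth trend on length subtracted from each array, an alternative chosen after seeing the data, CYR1 was at 0.74 (adjusted p = 0.00767) and GPA2 at 3.09. The same 5 higher and 2 lower counts were obtained, and of the 4342 rows 1088 passed as higher and 1052 as lower. In the mutant comparison the correlation with length was 0.14. The part of gene length in the result for CYR1 was not tested.

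**Figure D3:**
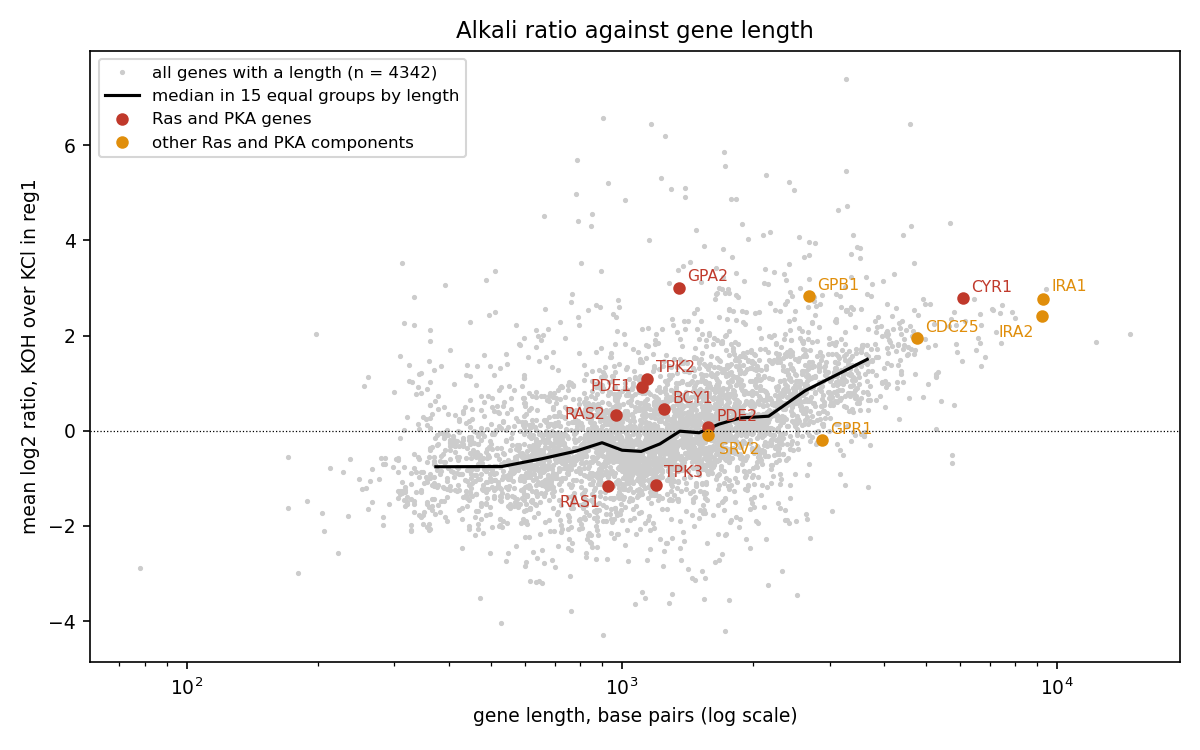
Mean KOH over KCl log2 ratio of each gene against its length in base pairs (log axis), with the median in 15 equal groups by length as a line. The 9 Ras and PKA genes are in red and the 6 measured other components in orange. CYR1, CDC25, IRA1 and IRA2 lie at the long end, where nearly all genes are above 0, and GPA2 lies far above genes of like length.

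Of the phosphodiesterase genes 1 was called and 1 was not. PDE1, which encodes the low-affinity enzyme, had 0.99 and 0.85 after KOH, above 0 on both arrays. Its mean of 0.92 ± 0.10 (SD, n = 2) is a 1.89-fold increase (adjusted p = 0.00308). PDE2, which encodes the high-affinity enzyme, had -0.09 and 0.25, on either side of 0. Its mean of 0.08 did not pass (adjusted p = 0.710), and its interval was 0.79-fold to 1.42-fold. PDE1 lay above PDE2 by 1.08 and 0.60 on the 2 arrays, a gap that was not tested. Without alkali experiment 1, PDE1 was at 0.85 and no longer passed (adjusted p = 0.0720).

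Among the PKA subunits, the regulatory subunit gene BCY1 had 0.43 and 0.47 after KOH, a small and even difference. Its mean of 0.45 ± 0.03 (SD, n = 2) is a 1.37-fold increase that passed narrowly (adjusted p = 0.0350). That call was lost in 6 of 13 alternatives, including the fits that left out 1 alkali array (adjusted p = 0.244 without experiment 1 and 0.266 without experiment 2). The catalytic subunit gene TPK2 had 1.09 and 1.10, above 2-fold on both arrays. The mean of 1.10 ± 0.01 is a 2.14-fold increase (adjusted p = 0.00169), and it passed in all 12 alternatives that could be fitted. TPK3, another catalytic subunit gene, had -1.07 and -1.21, more than 2-fold lower on both arrays. The mean of -1.14 ± 0.10 is a 2.20-fold decrease (adjusted p = 0.00591). After scaling, neither TPK3 (adjusted p = 0.134) nor RAS1 (0.0515) was called. Scaling multiplied the alkali ratios by 0.66 and 0.70 and the mutant ratios by 1.47 and 1.48. It thus shrank alkali means and enlarged the mutant spread in the shared fit. With the alkali arrays alone both passed in limma (adjusted p = 0.00181 for TPK3 and 0.00154 for RAS1). TPK3 was not called in fits left with 1 alkali array, at -1.21 without experiment 1 and -1.07 without experiment 2.

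TPK2 and TPK3 thus had unequal ratios. Within each array TPK2 lay above TPK3, by 2.16 and 2.31 on the log2 scale, a 4.71-fold gap between ratios. This gap is a description without a test. RAS1 and RAS2 are close in sequence, as are TPK2 and TPK3, and their spots may share signal. By their means after KOH the order was GPA2, CYR1, TPK2, PDE1, BCY1, RAS2, PDE2, TPK3, RAS1. The arrays overlapped between GPA2 and CYR1, between BCY1 and RAS2, between RAS2 and PDE2, and between TPK3 and RAS1. The other neighbours did not overlap, with the widest gap, 1.69, between CYR1 and TPK2 and the next, 1.22, between PDE2 and TPK3.

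**Figure D4:**
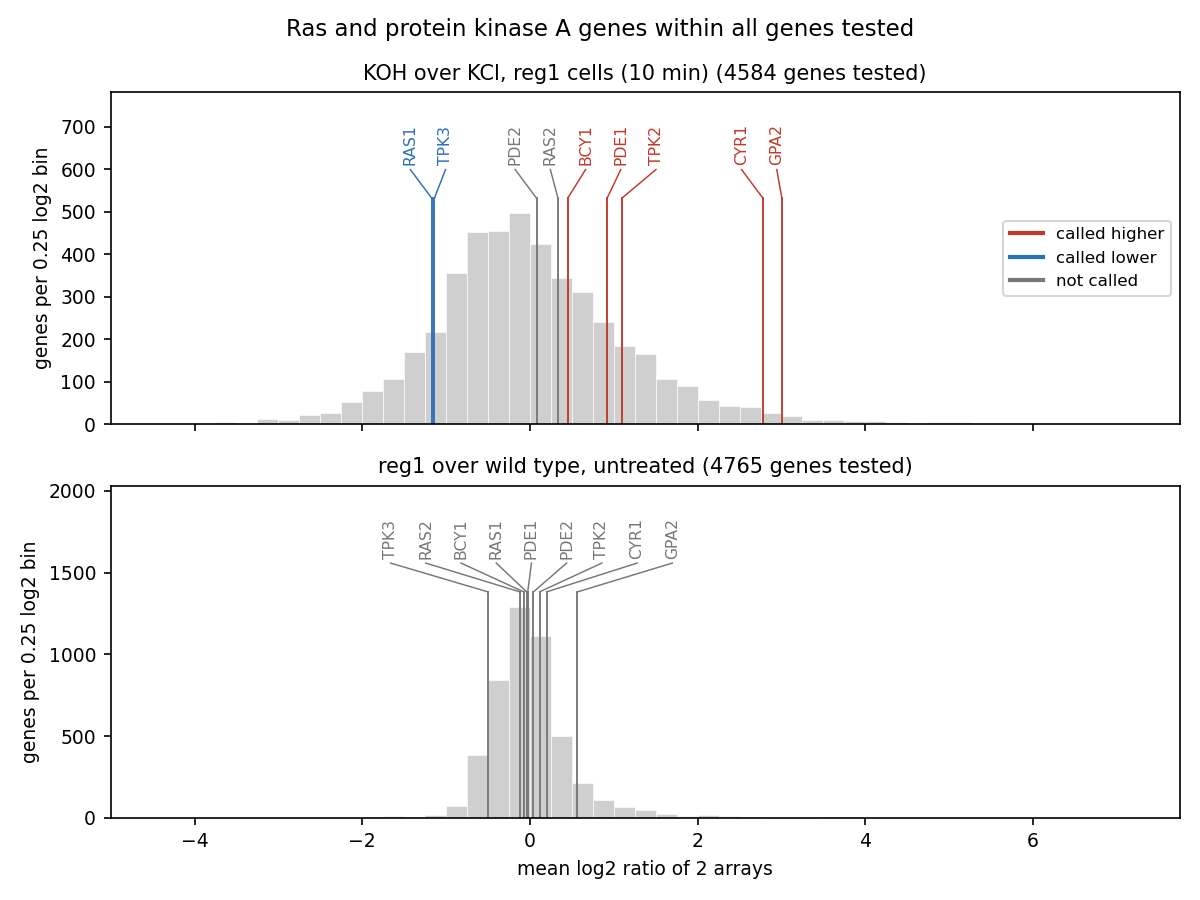
Distribution of mean log2 ratios over all genes tested, in bins of 0.25, with the 9 genes as vertical lines. Above, KOH over KCl in reg1 (4584 genes), where the 9 genes spread from -1.17 to 3.01. Below, reg1 over wild type (4765 genes), where they lie between -0.50 and 0.57, within the bulk of the genes.

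Genes that act on Ras, on Gpa2 or on adenylate cyclase were described from a list of 9 other components. Of 6 measured on both alkali arrays, 4 were higher after KOH, 0 were lower and 2 did not pass, and their median log2 ratio was 2.17. Calls in 4 of 6 genes are near the 61.8% of all rows called, of which the higher ones make up 29.1% of all rows. The 4 were GPB1, a kelch-repeat inhibitor of the pathway (3.24 and 2.41), CDC25, the guanine nucleotide exchange factor of Ras (2.45 and 1.45), and the Ras GTPase activators IRA1 (3.30 and 2.22) and IRA2 (2.53 and 2.27). So both the activator of Ras and its inhibitors had higher ratios, and all 4 were higher on experiment 1 than on experiment 2. GPR1, the receptor gene (-0.15 and -0.24), and SRV2, for a protein bound to adenylate cyclase (-0.28 and 0.09), did not pass. SDC25, a paralogue of CDC25, and RGS2, for a GTPase activator of Gpa2, had a value on experiment 2 alone (0.66 and -0.19), and GPB2 had none.

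CDC25, IRA1 and IRA2 are long genes too, of 4770, 9279 and 9240 base pairs. With the length trend subtracted, CDC25 was at 0.24 (adjusted p = 0.290), IRA1 at 0.19 (0.326) and IRA2 at -0.17 (0.489), while GPB1 (1.99) still passed and GPR1 passed as lower (-1.15, adjusted p = 0.00141), which makes 1 of the 6 higher and 1 lower. In that alternative 1088 of all 4342 rows passed as higher and 1052 as lower. Over genes of 4000 base pairs or more, the median difference between the alkali arrays, experiment 1 minus experiment 2, was 0.41 on the log2 scale, against -0.04 for shorter genes. Whether length bears on these ratios was not tested.

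Further lists covered what surrounds the pathway. Ras proteins reach membranes through lipid attachment, and of 6 measured genes for that processing 1 was higher and 2 were lower after KOH, with a median of -0.07. For a list of this size, calls in 3 of 6 genes are near the 61.8% of all rows called. SHR5, a subunit of the Ras palmitoyltransferase, was at 0.86 ± 0.10 (adjusted p = 0.00416). STE14, the carboxyl methyltransferase, was at -0.80 ± 0.39 (0.0125) and RAM2, a farnesyltransferase subunit, at -0.61 ± 0.21 (0.0182). None of the 3 passed without alkali experiment 1 (STE14 at -0.52 and RAM2 at -0.46), and without experiment 2 STE14 alone did. After subtraction of the length trend 2 genes of this list passed as higher and 0 as lower, beside 1088 and 1052 of all 4342 rows.

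Of 10 measured kinases and transcription factors that act downstream of PKA or beside it, 8 were higher after KOH, 0 were lower and 2 did not pass, with a median of 1.26, against 29.1% of all rows called higher and 32.7% called lower. YAK1, for a kinase that opposes PKA in growth control, was at 3.51 ± 0.43 (SD, n = 2, adjusted p = 4.5e-04). GIS1, a transcription factor gene of nutrient limitation, was at 3.19 ± 0.04 (1.5e-04). SOK1, named as a suppressor of PKA loss, was at 1.70 ± 0.06, and PHD1, a transcription factor gene of filamentous growth, at 1.44 ± 0.35. After scaling 6 of the 10 passed as higher and 0 as lower, beside 734 and 490 of all rows. Here too a call moved with gene length. RIM15, for a kinase that PKA inhibits, was at 1.23 and passed as higher, but at -0.64 and passed as lower with the length trend subtracted (adjusted p = 0.0242). In that alternative 5 of the 10 passed as higher and 1 as lower, beside 1088 and 1052 of all 4342 rows. The list median there was 0.42. MSN2, for a transcription factor that PKA keeps out of the nucleus, was at 0.25 and did not pass. Its paralogue MSN4 passed narrowly at 0.52 (0.0471), and did not pass without alkali experiment 1 (0.382) or without experiment 2 (0.154).

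Targets of Msn2 and Msn4 carry the stress response element and are held low when PKA is active. Of 10 measured, 9 were higher after KOH, 0 were lower and CTT1, the cytosolic catalase gene, did not pass (0.16 and 0.25), with a list median of 2.41, where 29.1% of all rows were called higher and 32.7% lower. The leading members were the trehalose genes TSL1 (4.72 ± 0.13, adjusted p = 1.4e-04) and TPS2 (3.69 ± 0.04, 1.2e-04), the phosphoglucomutase gene PGM2 (3.22 ± 0.11, 1.4e-04) and the glycogen synthase gene GSY2 (3.10 ± 0.45, 2.4e-04). The count was the same 9 with the length trend subtracted, where 1088 of all 4342 rows passed as higher and 1052 as lower. The list was chosen with earlier results on trehalose and glycogen genes known, so its direction is no independent evidence.

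**Figure D5:**
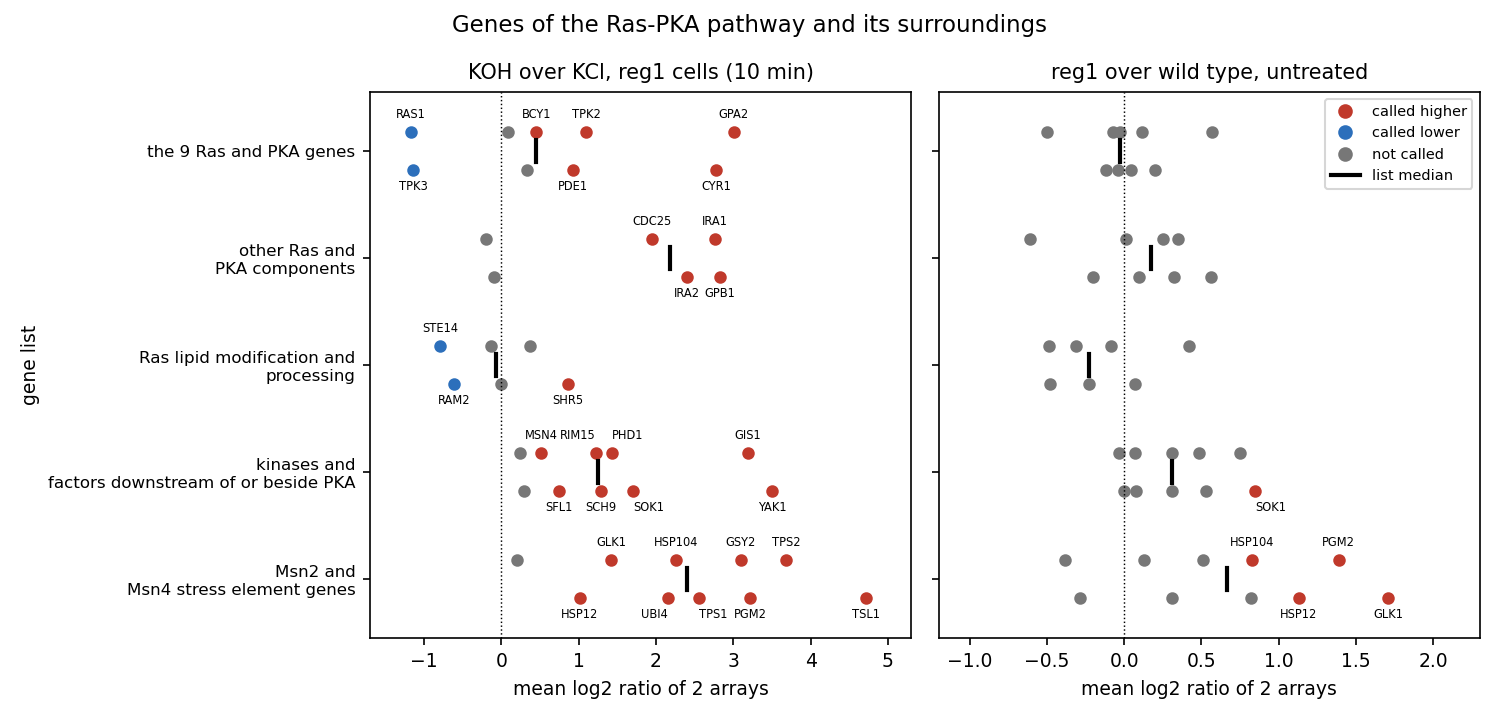
Mean log2 ratio of each measured gene of the 9 Ras and PKA genes and of the 4 further lists (red, called higher; blue, called lower; grey, not called), with list medians as black ticks; the panels have different horizontal scales. Left, KOH over KCl in reg1, where list medians run from -0.07 to 2.41. Right, reg1 over wild type, where called genes stand in 2 lists, SOK1 in 1 and HSP104, HSP12, PGM2 and GLK1 in the other.

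Of the 9 genes GPA2 had the largest called mean after KOH, and the genes nearest to it over the 4 log2 ratios were sought among 4314 other rows measured on all arrays. The closest was MTL1, a cell integrity sensor gene, at a Euclidean distance of 0.28 on the log2 scale (2.86 and 2.92 after KOH, 0.26 and 0.67 in reg1). GIS1 followed at 0.36 and KIN82, a protein kinase gene, at 0.55. In all, 42 rows lay within a distance of 1.

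In untreated cells all 9 genes had mean log2 ratios between -0.50 and 0.57, reg1 over wild type. None of the 9 was called by limma (adjusted p below 0.05) in reg1 against wild type, where 7.16% of 4765 rows passed (5.2% higher and 1.95% lower). At an unadjusted p of 0.05, 1 passed, GPA2. The median of the 9 was -0.03, against -0.05 over all rows, and 3 of the 9 had opposite signs on the 2 arrays. For 7 of the 9 the 95% interval lay within a 2-fold change in either direction, so a larger change is outside the interval for those genes. The exceptions were GPA2 and TPK3.

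GPA2 was at 0.27 and 0.87 in reg1, above 0 on both arrays but far apart. Its mean of 0.57 ± 0.42 (SD, n = 2) is a 1.48-fold difference with an interval of 1.06-fold to 2.06-fold (adjusted p = 0.148). With a dye term in the fit the same mean passed (adjusted p = 0.0467), but p-values of that fit are too small for so few arrays. Of 13 alternatives it was the only 1 in which GPA2 passed, and with the mutant arrays alone the adjusted p was 0.287 (limma). TPK3 was at -0.13 and -0.87, below 0 on both arrays. Its mean of -0.50 ± 0.53 did not pass (adjusted p = 0.220), with an interval of -1.03 to 0.02. At the gene's own name, as deposited, TPK3 had no mutant value, so this value rests on the realigned reading.

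The other 7 genes were nearer to 0 in reg1. RAS1 had 0.17 and -0.24, and RAS2 0.33 and -0.57, each with arrays on either side of 0. As deposited at its name, RAS1 would be read as 0.61 and -0.22 and RAS2 as -0.26 and -0.98, and neither reading passed. CYR1 had 0.21 and 0.19, with an interval of 0.78-fold to 1.69-fold that also takes in the spread of its alkali arrays. PDE1 had -0.02 and -0.04, and PDE2 had 0.22 and -0.13. BCY1 had -0.11 and -0.04, and TPK2 had 0.19 and 0.04. No pair of paralogues among the 9 was as far apart as after KOH: TPK2 lay above TPK3 by 0.32 and 0.91 on the 2 arrays, and the RAS2 ratio was above that of RAS1 on 1 array and below it on the other.

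Of 8 other components measured on both mutant arrays, 0 passed in either direction in reg1, with a median log2 ratio of 0.17. Over all rows 7.16% passed, so few calls would be found in any list of this size. The largest means were those of RGS2 (-0.61 ± 0.14, adjusted p = 0.102) and IRA2 (0.56 ± 0.10, 0.0946), and CDC25, IRA1, GPB1, GPR1, SRV2 and SDC25 lay between -0.20 and 0.35. With a dye term both IRA2 (adjusted p = 0.0499) and RGS2 (0.0296) passed, and after scaling IRA2 passed (0.0311). With the mutant arrays alone neither gene passed (0.237 for IRA2 and 0.216 for RGS2). IRA2 stands in the displaced stretch and would be read as -0.01 as deposited. None of 7 lipid processing genes passed, with a median of -0.23. Of 10 kinases and factors, SOK1 was higher (0.85 ± 0.07, adjusted p = 0.0272), and it did not pass without any 1 of the 4 arrays (0.0552 to 0.111).

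Of 10 stress element genes 4 were higher in reg1 and 0 were lower, with a median of 0.67, where 5.2% of all rows were called higher. They were GLK1, the glucokinase gene (1.71 ± 0.08, adjusted p = 0.00364), PGM2 (1.39 ± 0.11, 0.00723), HSP12, a small membrane stress protein gene (1.13 ± 0.40, 0.0279), and HSP104, a disaggregase gene (0.83 ± 0.08, 0.0287). Of the 10 means, 8 lay above 0 and 2 below, those of UBI4 (-0.39 and -0.37) and CTT1 (-0.06 and -0.51). TSL1, which led this list after KOH, had -0.23 and 0.49. HSP104 and PGM2 stand in the displaced stretch, so their calls rest on the realigned reading, while GLK1 and HSP12 do not. HSP104 would be read as -0.38 as deposited. With either alkali array left out, or mutant experiment 2 left out, 2 of the 10 passed, and HSP104 and HSP12 did not. Without mutant experiment 1 it was 3, and HSP104 did not pass.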

How the data were processed

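RNA ratios were measured on 4 spotted 2-colour arrays, 2 per comparison with the dyes swapped, from cDNA primed with oligo(dT). The authors deposited log ratios per row and array, with small or weak spots left out, per the labels. Their base is not stated, and the deposited values were taken as log2 from their range. The sources used here name no scanner, normalization or background correction, and signal over background is unknown. The arrays of a comparison correlated at r = 0.59 (mutant) and 0.95 (alkali), so no sign was turned. Of 6212 rows, 5677 were named by locus tag or synonym in RefSeq's table of assembly R64. The table names no build, so no coordinates are given, and sequences were not used here. One further item is not reported here.

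Mutant values from YKL011C to YPR204W were read 2 rows further down, a choice made from the data, and YAL067C to YBR047W were left out. Mean log2 ratios were tested against 0 with limma 3.58.1 (lmFit and eBayes, R 4.3.3), all 4 arrays in 1 fit, over rows with both arrays of a comparison. P-values were adjusted by Benjamini-Hochberg over all rows tested and called under 0.05. The fit was tested on simulated data drawn from its own model, which cannot show effects of gene length, dye or row register. The genes, lists and tests were chosen with earlier results of these data known. Named were the 9 genes, REG1 and ENA1, the other components in full, up to 4 called genes of the largest size in each further list, and the 3 rows closest to the gene of the 9 with the largest called alkali mean. CTT1, UBI4, MSN2, MSN4 and RIM15 were named after their values were seen. Alternatives covered the register, centring, scaling, the arrays fitted, a dye term, a replicate block, the filter, single arrays left out and gene length.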

Additional observations from a re-analysis of the deposited data

How the results depend on the processing

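Over 12 alternatives and the subtraction of the length trend, chosen after seeing the data, 210 of 222 values of the 9 genes kept their side of the threshold. Of the rest, 11 lost a call, 1 gained one and 0 changed sign with a call in either fit. Some uncalled means did change sign, such as PDE2 after KOH (0.08, and -0.09 without alkali experiment 2). CYR1 in reg1 was another (0.20, and -0.05 with the length trend subtracted). For genes of the other lists 772 of 829 kept their side, 37 lost a call, 17 gained one and 3 changed sign with a call in either fit. The 3 were HSP104 in reg1 as deposited (-0.38), and IRA2 (-0.17) and RIM15 (-0.64) after alkali with the length trend subtracted. There limma did not call IRA2 (adjusted p = 0.489) and called RIM15 lower (0.0242). Of 9 genes called after KOH, 7 in the main result, 3 were called of the 4 in rows where no value is moved, 4 after scaling, and 4 to 7 with 1 array left out (lowest without alkali experiment 1). In reg1 the count was 0 throughout, except 1 with a dye term, a fit whose p-values are too small for so few arrays. Over all rows, those called in reg1 numbered 341, against 176 where no value is moved, 548 after scaling, 153 with the mutant arrays alone, 801 with a dye term, and 153 to 285 with 1 array left out (153 without either alkali array). After KOH it was 2832, against 1434 where no value is moved (fewer rows tested), 1224 after scaling, and 1342 to 3275 with 1 array left out (1342 without alkali experiment 1 and 1487 without experiment 2). Leaving out an array of the other comparison gives the same spread as the arrays of the comparison alone, by construction. The tallies of alternatives therefore count that fit more than once and do not measure independent agreement. The filter could not change the means of the 9 genes, which had values on all 4 arrays. The experiment numbers are shared by both comparisons, but nothing in the labels pairs them. Deviations of same-numbered arrays correlated at r = -0.09, and a replicate block gave 420 rows in reg1 and 2867 after KOH, and 0 and 6 of the 9 genes, BCY1 being the one lost. The cause of these changes was not tested. With 2 arrays per comparison and no signal over background, differences under about 2-fold are often within the intervals given.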
